A study of Mus musculus with 14 samples.

Results

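The integrin and laminin genes were followed across 14 RNA sequencing libraries of clonal mouse bone marrow stromal cells. Members were all genes of the count table whose symbol names a numbered integrin alpha chain, Itgav, Itgax, a numbered integrin beta chain, or a numbered laminin alpha, beta or gamma chain. This rule uses no measured value and found 32 of 23331 genes, comprising 13 integrin alpha chains, 8 integrin beta chains and 11 laminin chains. The cells came from long bones of adult C57Bl/6 mice carrying the irtTA-GBD*-TAg transgene, whose Large T-antigen is switched on by dexamethasone and doxycycline and let the clones expand. All 14 libraries share this transgene, and all cells were kept for 3 days without both inducers before RNA was taken. Clones had been typed by what they could form in culture. The groups of 3 libraries are tripotent (osteogenic, adipogenic and chondrogenic, OAC), bipotent (osteogenic and adipogenic, OA), osteogenic only (O) and adipogenic only (A). In each of these 4 groups the libraries numbered 1 and 2 each hold a single clone, from 2 different animals, and the one numbered 3 pools additional clones of the same 2 animals. The osteogenic and chondrogenic pool (OC3) and the adipogenic and chondrogenic pool (AC3) have no replicate and entered no test. The groups therefore rest on few clones, so p-values reflect variation among those clones and pools and no wider population of mice.

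Integrins are receptors built from an alpha and a beta chain that span the cell membrane and tie the matrix outside to the actin cytoskeleton inside. The alpha chain largely sets the ligand. Itga1, Itga2, Itga10 and Itga11 pair with Itgb1 to bind collagens, Itga3, Itga6 and Itga7 mainly bind laminins, and Itga5, Itga8 and Itgav recognise the Arg-Gly-Asp motif of proteins such as fibronectin and vitronectin. Laminins are trimers of an alpha, a beta and a gamma chain that form the core sheet of basement membranes, and in marrow they surround vessels and fat cells.

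Start windows listed in RefSeq for 3 members that DESeq2, 1 of the tools used below, called different between potency groups are shown here, since they differ in base composition. Each is 300 bases, from 250 bases before to 50 bases after the RefSeq start on GRCm38.p6, written 5′ to 3′ along the gene, with every CpG dinucleotide in capitals.
Lama5, chr2:180225810-180226109, minus strand: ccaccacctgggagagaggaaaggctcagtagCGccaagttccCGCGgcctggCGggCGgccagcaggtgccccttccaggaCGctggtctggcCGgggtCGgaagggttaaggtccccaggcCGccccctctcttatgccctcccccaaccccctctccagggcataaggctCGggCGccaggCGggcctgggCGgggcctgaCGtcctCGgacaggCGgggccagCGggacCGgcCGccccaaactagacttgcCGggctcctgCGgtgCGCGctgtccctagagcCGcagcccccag
Itga10, chr3:96645334-96645633, plus strand: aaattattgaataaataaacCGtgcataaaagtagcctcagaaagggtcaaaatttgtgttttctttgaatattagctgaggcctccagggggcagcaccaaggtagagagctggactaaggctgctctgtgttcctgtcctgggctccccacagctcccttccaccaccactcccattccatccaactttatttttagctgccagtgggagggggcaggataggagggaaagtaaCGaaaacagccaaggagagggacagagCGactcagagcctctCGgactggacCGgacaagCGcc
Itga9, chr9:118711442-118711741, plus strand: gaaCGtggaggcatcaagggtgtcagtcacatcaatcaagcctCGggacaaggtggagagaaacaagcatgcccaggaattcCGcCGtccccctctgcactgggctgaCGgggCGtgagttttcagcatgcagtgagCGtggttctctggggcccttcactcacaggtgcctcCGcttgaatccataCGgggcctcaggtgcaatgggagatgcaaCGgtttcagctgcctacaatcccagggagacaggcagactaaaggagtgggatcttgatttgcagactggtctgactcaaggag
The Lama5 window held 24 CpG and 72.7% G or C, the Itga9 window 10 CpG and 56.7%, and the Itga10 window 6 CpG and 51.0%. Over all 32851 start windows of the RefSeq table the median was 7 CpG and 52.7% G or C. The GC box letters GGGCGG, searched on both strands, occurred 4 times in the Lama5 window, where overlapping matches counted separately, and 0 times in the other two. They occurred in 35.7% of all windows. At least as many CpG as in the Lama5 window were found in 19.98% of all windows, against 43.5% for Itga9 and 56.4% for Itga10. These matches describe the letters around a start that RefSeq lists, which need not be the main start of the gene. Which start these cells used was not measured, and no binding was measured. RefSeq windows were found for 21 of the 32 members.

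Total counts were 16888190 to 26076539 per library. Levels are given in CPM, for which each count is divided by a TMM-adjusted library size, and the tests took in genes reaching 1 CPM in 3 or more libraries, which kept 28 of the 32 members. In many libraries the deviation from the mean library followed the GC content of the transcripts across all tested genes. The Spearman rho was 0.65 in OA2 and 0.51 in O1, against -0.54 to 0.36 in the other 12, with -0.54 in OAC3, OC3 and AC3. The libraries OA2 and O1 stood apart in the genes of the lowest 25% of GC content. The median log2 deviation of these genes was -1.79 in OA2 and -1.09 in O1, against -0.40 to 0.65 in the other 12. Stromal markers were high, with summed levels of 18182 to 84506 CPM over 8 genes, and of these Thy1 averaged 0.0109 CPM. Their sum was 18182 to 23187 CPM in the A libraries, against 37661 to 84506 CPM in the other 11, and Col1a1 and Col1a2 had the highest mean levels of the list. Other markers of the list went the other way. Cxcl12 stood at 4833, 5131 and 2413 CPM (A1 to A3) against 643, 400 and 646 CPM (O1 to O3). Pdgfra stood at 94.5, 96.0 and 58.8 CPM (A1 to A3) against 23.2, 55.8 and 36.2 CPM (O1 to O3). By edgeR log2 fold change, 3 of the 7 tested stromal markers were higher in O than in A. Blood cell markers summed to 12.4 to 70.5 CPM over 11 genes, with Ptprc at a mean of 0.00539 CPM, and endothelial markers to 0.590 to 6.56 CPM over 6 genes, with Pecam1 at a mean of 0.0847 CPM. Schwann and neural, skeletal muscle and epithelial markers reached at most 30.3, 82.5 and 19.6 CPM in sum. Of the Schwann and neural markers, S100b stood at 1.54, 29.4 and 4.58 CPM (OAC1 to OAC3), 2.61, 4.45 and 7.40 CPM (OA1 to OA3), 13.5, 15.2 and 5.21 CPM (O1 to O3), and 0.699, 0.729 and 0.725 CPM (A1 to A3), so every A library lay below every other library, while Ngfr averaged 0.292 CPM. Smooth muscle markers summed to 3236 to 19549 CPM over 5 genes, with the highest value in OA2 and the lowest in O2, and the part of these stromal, neural and smooth muscle markers in the results below was not tested. In the GENCODE M21 annotation (GRCm38) exons of 10 members overlap those of another gene, among them Itga10 and Itga1 on the same strand and Itga7, Itgav and Lama3 on the opposite strand, so the counts of these genes are uncertain. In such bulk libraries, fewer cells of a type and less RNA per cell cannot be told apart.

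**Figure D1:**
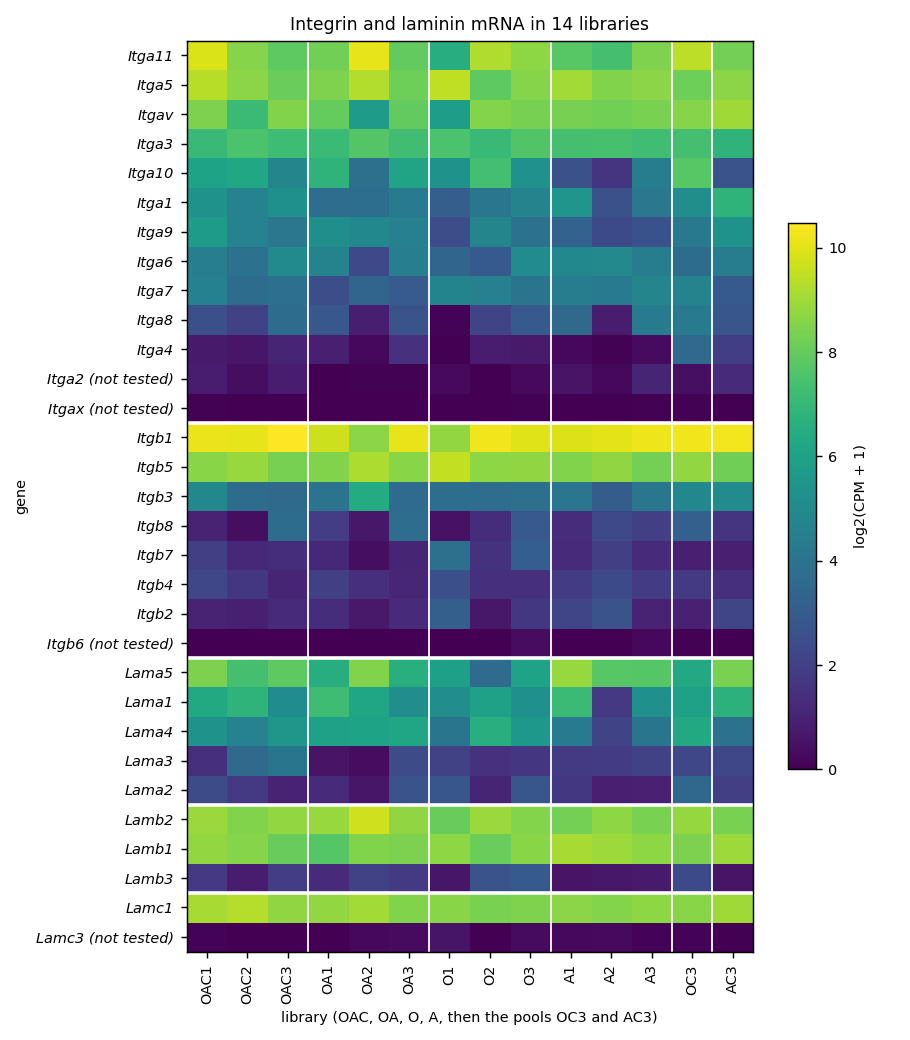
Level of integrin and laminin genes as log2(CPM + 1) (colour) in each library (columns, by potency group), with rows by chain type and by mean level within it. Itgb1, Itgb5, Itga5, Itga11, Lamb1, Lamb2 and Lamc1 are bright in nearly all columns, while Lama5, Itga10 and Lama4 change between the O and A columns.

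Integrin beta chains were dominated by a pair of genes. Itgb1, the shared partner of most alpha chains, averaged 252 CPM per kilobase of exon over the 14 libraries, the highest level per length of all 32 members. Itgb5, which pairs with Itgav to bind vitronectin, followed at 126, and Itgb3, the other well known vitronectin receptor chain, at 3.71 CPM per kilobase. Itgb1 stood at 1152, 1103 and 1426 CPM (OAC1 to OAC3), 817, 404 and 1104 CPM (OA1 to OA3), 444, 1209.8 and 996 CPM (O1 to O3), and 986, 1070.4 and 1177 CPM (A1 to A3). The pools had 1214 CPM in OC3 and 1272 CPM in AC3. Its levels in OA2 and O1 were the lowest, below the range of 817 to 1426 CPM in the other 12 libraries. Itgb5 stood at 391, 468 and 321 CPM (OAC1 to OAC3), 356, 579 and 387 CPM (OA1 to OA3), 732, 418 and 424 CPM (O1 to O3), and 361, 423 and 312 CPM (A1 to A3), with 441 CPM in OC3 and 298 CPM in AC3. Its highest values were those of O1 and OA2. Itgb1 made up 34.6% and 32.3% of the integrin beta signal per kilobase in OA2 and O1, and 64.5% to 77.8% in each of the others. The transcripts differ in base composition, at 44.9% GC for Itgb1 and 57.0% for Itgb5, and the part of the GC trend of these libraries in the split was not tested.

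Itgb3 was high in a single library. It stood at 28.9, 11.9 and 11.4 CPM (OAC1 to OAC3), 15.0, 85.3 and 11.7 CPM (OA1 to OA3), 12.9, 12.3 and 13.8 CPM (O1 to O3), and 16.2, 7.496 and 16.4 CPM (A1 to A3), with 28.4 CPM in OC3 and 32.1 CPM in AC3. Its level in OA2 was above the 7.496 to 32.1 CPM of the 12 libraries other than OA2 and O1. The remaining beta chains were low. Itgb4, the laminin receptor chain of epithelia, and Itgb8, a partner of Itgav that binds latent TGF-beta, ranged from 1.15 to 4.90 and from 0.314 to 12.3 CPM. Itgb6, the epithelial partner of Itgav, had 12 reads over all libraries and was not tested.

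Among the alpha chains, the fibronectin receptor Itga5 was highest per length at 95.9 CPM per kilobase, and the fibrillar collagen receptor Itga11 was next at 84.1. Itga5 stood at 656, 399.6 and 277 CPM (OAC1 to OAC3), 353, 616 and 286 CPM (OA1 to OA3), 705, 236 and 382 CPM (O1 to O3), and 515, 361 and 400.5 CPM (A1 to A3), with 290.3 CPM in OC3 and 399.8 CPM in AC3. All 4 groups overlapped. Itgav, which pairs with several beta chains, stood at 343, 139.5 and 364 CPM (OAC1 to OAC3), 258, 53.3 and 247 CPM (OA1 to OA3), 56.4, 374 and 323 CPM (O1 to O3), and 321, 303 and 326 CPM (A1 to A3), with 377 CPM in OC3 and 511 CPM in AC3. Like Itgb1 it was lowest in OA2 and O1, and its transcript has 43.5% GC. Itga8, a receptor of nephronectin, was low at 0.0637 to 19.2 CPM.

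The collagen receptors varied widely between clones of a group. Itga11 stood at 954, 382 and 232 CPM (OAC1 to OAC3), 303, 1096 and 250.1 CPM (OA1 to OA3), 92.5, 592 and 414 CPM (O1 to O3), and 216, 169 and 346 CPM (A1 to A3), with 688 CPM in OC3 and 311 CPM in AC3. Its range within O, between O1 and O2, was wider than any difference between group means. Itga1, which prefers basement membrane collagen, stood at 39.2, 24.3 and 36.8 CPM (OAC1 to OAC3), 12.5, 12.7 and 18.5 CPM (OA1 to OA3), 7.96, 16.5 and 25.1 CPM (O1 to O3), and 44.5, 5.11 and 17.5 CPM (A1 to A3), and was highest in AC3 at 112 CPM, against 35.4 CPM in OC3. Itga10, known as a collagen receptor of cartilage, stood at 65.7, 74.9 and 25.99 CPM (OAC1 to OAC3), 113, 13.7 and 69.3 CPM (OA1 to OA3), 40.9, 161 and 38.7 CPM (O1 to O3), and 5.10, 1.99 and 20.5 CPM (A1 to A3). It was highest in OC3 at 213 CPM and low in AC3 at 5.44 CPM. Over the 10 libraries with osteogenic potential Itga10 ranged from 13.7 to 213 CPM with a median of 67.5, against 1.99 to 20.5 CPM with a median of 5.27 in the 4 libraries without it, a split chosen after the values were seen. Only OA2 reached into the lower range, below A3. Itga2, the platelet-type collagen receptor, had 141 reads in all and was not tested.

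The laminin-binding alpha chains were less abundant, apart from Itga3. Itga3 was the steadiest member together with Lamc1, with a highest level of 1.84 times its lowest. Its values were 138, 181 and 150.0 CPM (OAC1 to OAC3), 141, 203 and 154 CPM (OA1 to OA3), 181, 137 and 197 CPM (O1 to O3), and 165, 169.8 and 152 CPM (A1 to A3), with 167 CPM in OC3 and 110.2 CPM in AC3. Itga6 ranged from 4.02 CPM in OA2 to 31.8 CPM in O3. Itga7, a laminin receptor best known in muscle, stood at 23.3, 11.9 and 13.2 CPM (OAC1 to OAC3), 4.66, 9.65 and 7.13 CPM (OA1 to OA3), 25.8, 22.9 and 15.3 CPM (O1 to O3), and 20.2, 19.1 and 26.5 CPM (A1 to A3), with 24.5 CPM in OC3 and 6.83 CPM in AC3. All OA libraries and AC3 lay below all O and A libraries. Itga9, which binds tenascin and other ligands outside the collagen and laminin classes, stood at 53.2, 23.8 and 16.98 CPM (OAC1 to OAC3), 36.5, 28.7 and 22.8 CPM (OA1 to OA3), 4.58, 25.9 and 14.6 CPM (O1 to O3), and 8.76, 4.17 and 5.30 CPM (A1 to A3), with 17.6 CPM in OC3 and 40.9 CPM in AC3. All OAC and OA libraries lay above all A libraries, while O1 lay among the A libraries. Its relative Itga4, a receptor of Vcam1 and fibronectin, averaged 1.51 CPM and was highest in OC3, at 11.03 CPM.

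The chains known from blood cells were near the lower limit. Itgb2 stood at 1.02, 0.880 and 1.34 CPM (OAC1 to OAC3), 1.60, 0.643 and 1.43 CPM (OA1 to OA3), 8.02, 0.609 and 2.29 CPM (O1 to O3), and 3.62, 5.43 and 1.03 CPM (A1 to A3), with 0.948 CPM in OC3 and 3.57 CPM in AC3. Itgb7 stood at 3.00, 1.26 and 1.58 CPM (OAC1 to OAC3), 1.30, 0.322 and 1.12 CPM (OA1 to OA3), 13.4, 1.91 and 7.69 CPM (O1 to O3), and 1.40, 3.00 and 1.37 CPM (A1 to A3), with 0.910 CPM in OC3 and 0.913 CPM in AC3. Both were highest in O1, the library with the highest summed blood cell markers (70.5 CPM, against 12.4 to 30.7 CPM in the others), and the part of blood cells in these values was not tested. Most of that sum was Lyz2 at 37.2 CPM and Itga2b, itself an integrin chain, at 19.8 CPM. Pf4, Itgam and Gata1 were also highest in O1, at 1.21, 0.127 and 0.0637 CPM. Cd68, Csf1r and Itgal were not, at 7.26, 4.07 and 0.700 CPM in O1. Their highest values were 13.8 CPM in A1, 4.96 CPM in OA1 and 4.74 CPM in OAC3. Ptprc, Cd79a and Ly6g had 0 CPM in O1. Itgax, a chain of myeloid cells, had 4 reads over all libraries and was not tested.

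Lamc1, Lamb2 and Lamb1 were abundant in every library. Lamc1, the gamma chain of most laminins, stood at 556, 633 and 428 CPM (OAC1 to OAC3), 433, 518 and 364 CPM (OA1 to OA3), 394, 326 and 346 CPM (O1 to O3), and 407, 369.7 and 416 CPM (A1 to A3), with 392 CPM in OC3 and 511 CPM in AC3. Its values in all OAC libraries were above those in all O and all A libraries. Lamc3 had 37 reads in all and was not tested. Lamb2 stood at 483, 363 and 438 CPM (OAC1 to OAC3), 463, 851 and 432 CPM (OA1 to OA3), 263, 481 and 371 CPM (O1 to O3), and 313, 412 and 334 CPM (A1 to A3), with 453 CPM in OC3 and 326 CPM in AC3. Lamb1 stood at 443, 379 and 264 CPM (OAC1 to OAC3), 212, 362 and 343 CPM (OA1 to OA3), 408, 281 and 396 CPM (O1 to O3), and 543, 486 and 418 CPM (A1 to A3), with 338 CPM in OC3 and 492 CPM in AC3. Every A library lay above every O and every OA library in Lamb1. Lamb3, the beta chain of epithelial laminin, was low, at 2.29, 0.755 and 2.76 CPM (OAC1 to OAC3), 1.35, 3.06 and 2.42 CPM (OA1 to OA3), 0.573, 5.36 and 6.71 CPM (O1 to O3), and 0.452, 0.608 and 0.687 CPM (A1 to A3), with 4.09 CPM in OC3 and 0.476 CPM in AC3. All A libraries and AC3 were under 0.7 CPM, and so was O1.

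Lama5, the alpha chain of the most widespread adult laminins, stood at 339, 168 and 238 CPM (OAC1 to OAC3), 92.2, 358 and 96.1 CPM (OA1 to OA3), 60.5, 11.8 and 67.0 CPM (O1 to O3), and 464, 213 and 207 CPM (A1 to A3), with 78.5 CPM in OC3 and 329.8 CPM in AC3. All O libraries lay below all A, OA and OAC libraries. Lama4, the alpha chain of vessels and mesenchymal cells, stood at 40.6, 24.2 and 46.0 CPM (OAC1 to OAC3), 63.5, 66.4 and 70.1 CPM (OA1 to OA3), 15.6, 96.2 and 47.6 CPM (O1 to O3), and 18.2, 3.48 and 15.8 CPM (A1 to A3), with 82.3 CPM in OC3 and 14.01 CPM in AC3. All OA and OAC libraries lay above all A libraries, and O1 fell within the range of A. Lama1, mainly an embryonic chain, stood at 82.3, 111 and 33.3 CPM (OAC1 to OAC3), 147, 72.0 and 34.2 CPM (OA1 to OA3), 34.3, 62.2 and 37.0 CPM (O1 to O3), and 141, 2.31 and 37.6 CPM (A1 to A3), with 63.2 CPM in OC3 and 105 CPM in AC3. Its lowest level was that of the A2 clone, and the groups overlapped. Lama3, the epithelial chain, stood at 1.72, 11.4 and 15.9 CPM (OAC1 to OAC3), 0.451, 0.268 and 4.35 CPM (OA1 to OA3), 3.06, 1.79 and 2.18 CPM (O1 to O3), and 2.43, 2.55 and 3.17 CPM (A1 to A3), with 3.75 CPM in OC3 and 3.69 CPM in AC3. The highest values were those of OAC2 and OAC3. Lama2, the muscle and nerve chain, ranged from 0.536 CPM in OA2 to 10.2 CPM in OC3.

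As a share of the laminin alpha signal per kilobase, Lama5 made up 63.2% ± 11.95 in OAC, 47.8% ± 21.4 in OA, 31.6% ± 22.0 in O and 80.9% ± 13.01 in A (SD, n = 3 each). Lama4 made up 9.17% ± 3.21 in OAC, 20.5% ± 9.49 in OA, 29.7% ± 19.5 in O and 3.20% ± 2.07 in A. The share of Lama5 was 31.6% in OC3 and 69.2% in AC3, and that of Lama4 was 31.4% and 2.78%. In O2 the Lama4 share was 50.4% and the Lama5 share 6.52%, while in A2 they were 1.48% and 95.6%. These shares are descriptions and were not tested, and the smallest 2-sided p of an exact permutation of 3 libraries against 3 would be 0.1.

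**Figure D2:**
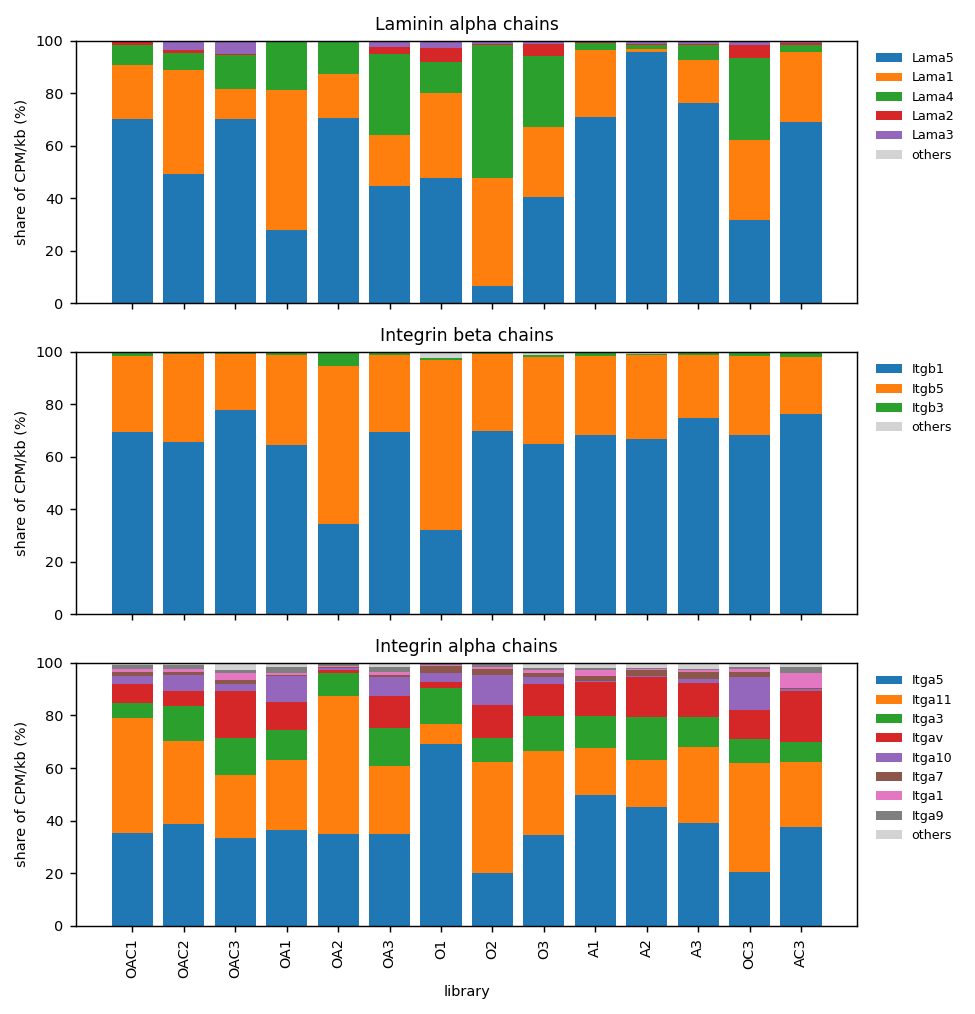
Share of the summed CPM per kilobase taken by each laminin alpha, integrin beta and integrin alpha chain (stacked bars, percent) in each library, with chains averaging under 1% drawn as others. Lama5 takes at least 69.2% in the A libraries and AC3, and also in OAC1, OAC3 and OA2. Itgb1 drops to 34.6% in OA2 and 32.3% in O1.

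**Figure D3:**
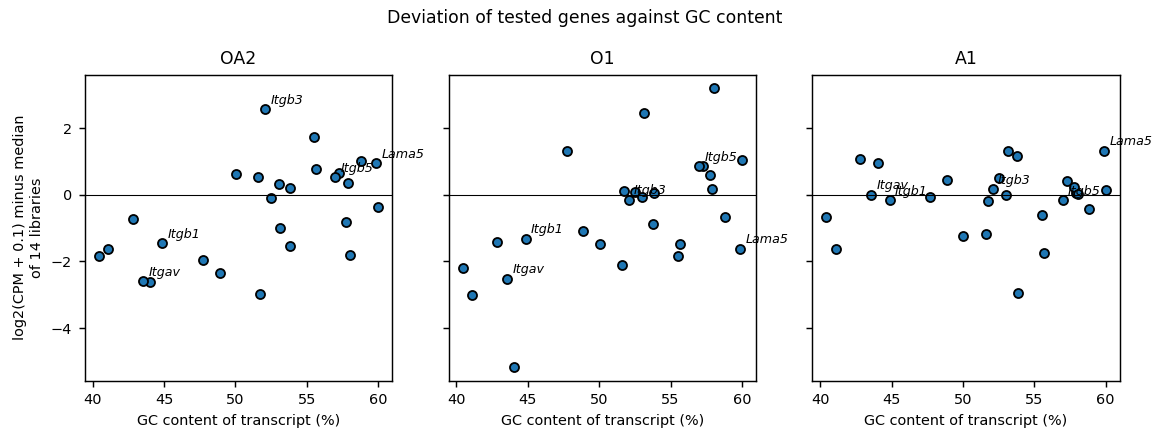
Deviation of tested members in OA2, O1 and A1 from their median over the 14 libraries, as log2(CPM + 0.1) (vertical axis), against the GC content of the longest transcript (horizontal axis, percent). Genes of low GC content such as Itgb1 and Itgav lie below 0 in OA2 and O1 and near 0 in A1.

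The comparison of O with A asked how adhesion genes differ between clones restricted to bone and clones restricted to fat. Lama5 was lower in O and Itga10, Lama4 and Lamb3 were higher in O, by DESeq2 but not by edgeR. Lama5 averaged 46.4 ± 30.2 CPM in O against 295 ± 146 CPM in A (SD, n = 3 each), with a log2 fold change -2.67 with an SE of 0.74, edgeR FDR 0.259, DESeq2 padj 0.012. Itga10 averaged 80.1 ± 69.7 CPM in O against 9.19 ± 9.91 CPM in A (log2 fold change 3.12 with an SE of 1.02, edgeR FDR 0.347, DESeq2 padj 0.0195). For both genes the groups did not overlap. Lama4 averaged 53.1 ± 40.6 CPM in O against 12.5 ± 7.90 CPM in A (log2 fold change 2.09 with an SE of 0.68, edgeR FDR 0.344, DESeq2 padj 0.0417), with O1 inside the range of A. Lamb3 averaged 4.21 ± 3.23 CPM in O against 0.582 ± 0.119 CPM in A (log2 fold change 2.85 with an SE of 0.83, edgeR FDR 0.28, DESeq2 padj 0.0152), again with O1 inside the range of A. Every A library was under the filter level of 1 CPM for Lamb3, which entered the tests only through libraries of other groups. By edgeR 0 of the 28 members passed the FDR of 0.05 and 6 had an unadjusted p under 0.05, while 0.0072% and 9.89% of all tested genes did. DESeq2 called 4 members, against 3.03% of all genes, and groups did not overlap for 4 members, against 15.6% of all genes. The median log2 fold change was 0.00 over the 28 members and 0.03 over all genes. The padj of Lama5 was 0.0517 with O2 left out and 0.172 with A1 left out, that of Itga10 was 0.264 with O2 left out, 0.142 with A1 left out and 0.13 with A2 left out, and that of Lamb3 was 0.12 with O2 left out, 0.121 with O3 left out, 0.108 with A1 left out and 0.0822 with A2 left out. For Lama4 it was 0.349 with O2 left out, 0.076 with O3 left out, 0.178 with A2 left out and 0.0676 with A3 left out. It was also 0.0516 to 0.0623 with OAC1, OAC2, OAC3, OA1 or OA3 left out, which are no part of the comparison and share only the fit, and the DESeq2 log2 fold change then stayed at 2.12 to 2.14, against 2.13 with all libraries. Without O2 it was 1.39. That of Itga10 was 2.19 without O2 and 4.55 without A3, against 3.17 with all libraries. Without OA2 and O1 together, which leaves 2 O libraries, all 4 calls were kept, with a padj of 0.00053 for Lama5, 0.00432 for Itga10, 0.003 for Lama4 and 4.6e-05 for Lamb3. In simulated counts of this comparison DESeq2, unlike edgeR, called more unchanged genes than its threshold allows. Those counts were drawn with the spread that edgeR had estimated, so they cannot rank the tools on the real counts. Of the stromal markers DESeq2 called 2 higher and 1 lower in O among 7 tested, and of the Schwann and neural markers 1 higher among 2 tested. Their part in the member values was not tested.

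**Figure D4:**
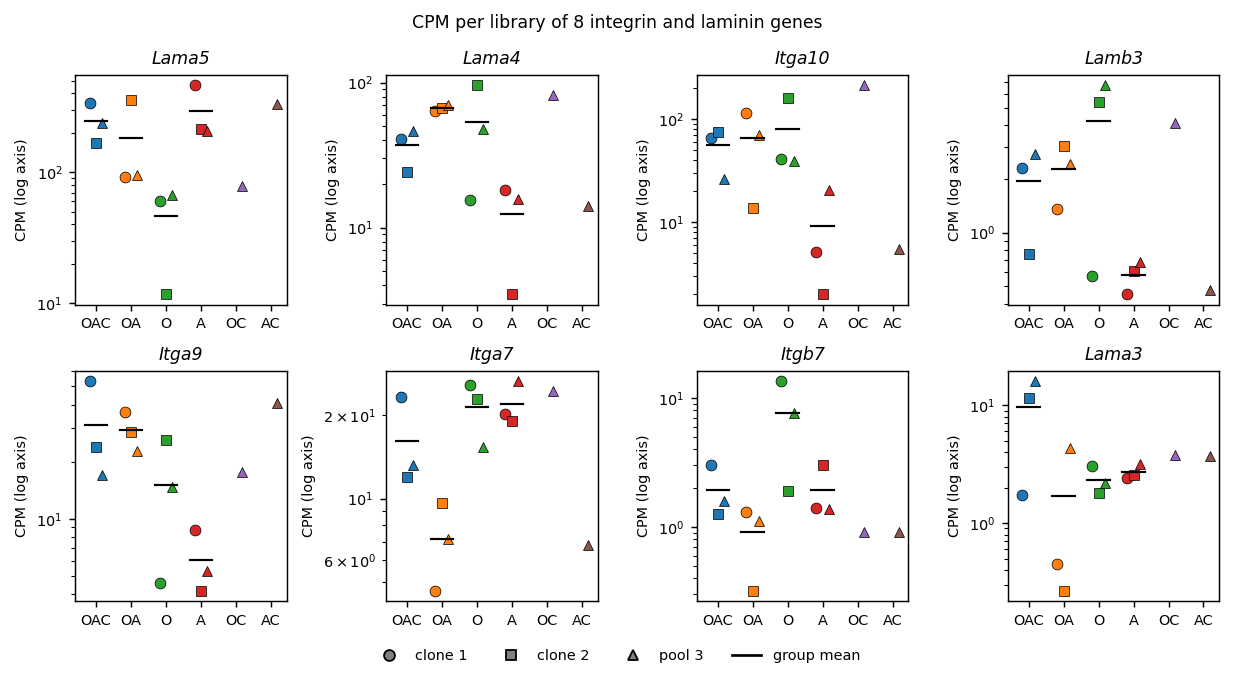
CPM (log axis) of 8 integrin and laminin genes in every library, by potency group, with clones 1 and 2 and pool 3 by marker shape and the group mean as a line. The 3 O libraries lie lowest for Lama5, the means of Itga10, Lama4 and Lamb3 are lowest in A, and the 3 OA libraries lie below all O and A libraries for Itga7.

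The comparison of OA with A addressed what goes with bone-forming capacity in clones that can also form fat. Lama4 and Itga9 were higher in OA and Itga7 was lower, by DESeq2 alone. Lama4 averaged 66.7 ± 3.28 CPM in OA against 12.5 ± 7.90 CPM in A (log2 fold change 2.41 with an SE of 0.69, edgeR FDR 0.656, DESeq2 padj 0.0273). Itga9 averaged 29.3 ± 6.89 CPM in OA against 6.08 ± 2.39 CPM in A (log2 fold change 2.27 with an SE of 0.62, edgeR FDR 0.649, DESeq2 padj 0.0251). Itga7 averaged 7.15 ± 2.50 CPM in OA against 21.9 ± 4.001 CPM in A (log2 fold change -1.62 with an SE of 0.37, edgeR FDR 0.649, DESeq2 padj 0.0116). The groups did not overlap for these 3 genes. Itga10 averaged 65.3 ± 49.8 CPM in OA against 9.19 ± 9.91 CPM in A and passed neither test (log2 fold change 2.83 with an SE of 1.008, edgeR FDR 0.789, DESeq2 padj 0.105), with OA2 inside the range of A. By edgeR 0 members passed, against 0.0072% of all genes, and 8 of 28 had an unadjusted p under 0.05, against 5.27%. DESeq2 called 3 members, against 0.937% of all genes, and groups did not overlap for 8 members, against 11%. Without OA2 and O1 DESeq2 called 5 members, these 3 among them. Of the 7 stromal markers tested it called 2 higher and 0 lower in OA. The padj of Itga7 was 0.118 with OA1 left out, 0.0525 with OA3 left out, 0.0638 with A1 left out, 0.0535 with A2 left out and 0.128 with A3 left out. That of Itga9 was 0.196 with OA1 left out, 0.0865 with OA2 left out, 0.21 with A2 left out and 0.139 with A3 left out, and that of Lama4 was 0.125 with OA1 left out, 0.091 with OA2 left out, 0.084 with OA3 left out, 0.117 with A2 left out and 0.0662 with A3 left out.

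Tripotent clones were set against adipogenic clones in the same way, with the same A libraries as reference as in both comparisons above. Itga9, again, was higher, at 31.3 ± 19.2 CPM in OAC against 6.08 ± 2.39 CPM in A (log2 fold change 2.36 with an SE of 0.63, edgeR FDR 0.9998, DESeq2 padj 0.022). Itga10 averaged 55.5 ± 26.01 CPM in OAC against 9.19 ± 9.91 CPM in A (log2 fold change 2.59 with an SE of 1.00, edgeR FDR 0.9998, DESeq2 padj 0.272), and Lama4 averaged 37.0 ± 11.4 CPM in OAC against 12.5 ± 7.90 CPM in A (log2 fold change 1.56 with an SE of 0.67, edgeR FDR 0.9998, DESeq2 padj 0.572). Lamb3 averaged 1.94 ± 1.05 CPM in OAC against 0.582 ± 0.119 CPM in A (log2 fold change 1.73 with an SE of 0.80, edgeR FDR 0.9998, DESeq2 padj 0.734). All 4 genes were higher in every OAC library than in every A library, but only Itga9 passed a test. The count of members passing edgeR was 0, against 0.0072% of all genes, and 3 had an unadjusted p under 0.05, against 3.58%. DESeq2 called 1 member, against 0.411% of all genes. Groups did not overlap for 6 members, against 10.8% of all genes, and all 6 were higher in OAC, as were 4.79% of all genes. The padj of Itga9 was 0.218 with OAC1 left out, 0.134 with OAC2 left out, 0.234 with A2 left out and 0.161 with A3 left out. Its DESeq2 log2 fold change was 1.81 without OAC1, against 2.43 with all libraries. DESeq2 also called 1 of 7 stromal markers and 1 of 2 Schwann and neural markers higher in OAC.

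**Figure D5:**
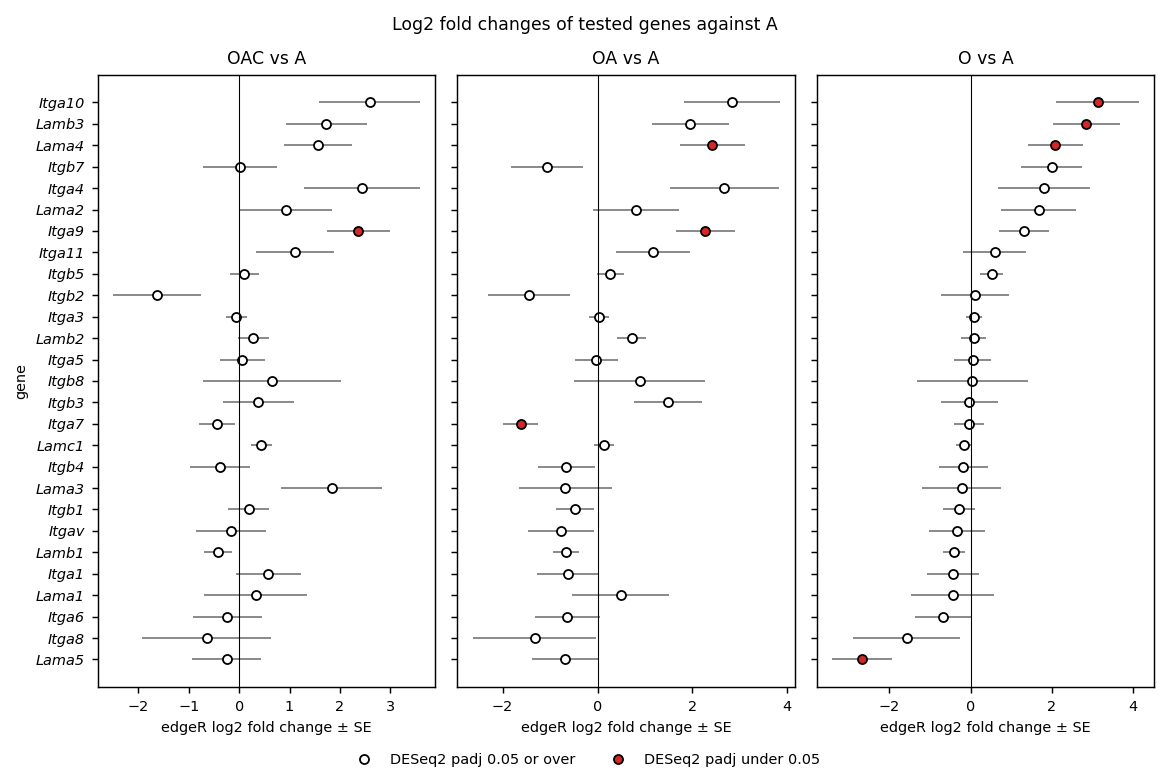
edgeR log2 fold change ± SE (horizontal axis) of tested members in OAC, OA and O against A, ordered by the O vs A value, with DESeq2 calls in red. Itga10, Lamb3 and Lama4 lie right of 0 in all 3 panels, which share the A libraries, and Lama5 has its lowest value in O vs A.

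The comparison of OA with O addressed what goes with fat-forming capacity in clones that form bone. Itga7 and Itgb7 were lower in OA by DESeq2. Itga7 averaged 7.15 ± 2.50 CPM in OA against 21.3 ± 5.41 CPM in O (log2 fold change -1.58 with an SE of 0.37, edgeR FDR 0.852, DESeq2 padj 0.0239), and Itgb7 averaged 0.915 ± 0.522 CPM in OA against 7.68 ± 5.76 CPM in O (log2 fold change -3.06 with an SE of 0.79, edgeR FDR 0.852, DESeq2 padj 0.0243). Lama5 averaged 182 ± 152 CPM in OA against 46.4 ± 30.2 CPM in O, without overlap, and passed neither test (log2 fold change 1.97 with an SE of 0.72, edgeR FDR 0.852, DESeq2 padj 0.268). Its edgeR log2 fold change was 0.98 without OA2, the highest of the OA libraries. Itgb3 averaged 37.3 ± 41.6 CPM in OA against 13.01 ± 0.718 CPM in O (log2 fold change 1.52 with an SE of 0.72, edgeR FDR 0.913, DESeq2 padj 0.565), and its edgeR log2 fold change was 0.00 without OA2. By edgeR 0 members passed (0% of all genes), and 3 had an unadjusted p under 0.05 (5.43% of all genes). DESeq2 called 2 (0.303% of all genes), and 3 did not overlap (8.2% of all genes). The padj of Itga7 was 0.138 with OA1 left out, 0.291 with O1 left out and 0.0981 with O2 left out, and that of Itgb7 was 0.328 with OA2 left out, 0.353 with O1 left out and 0.0585 with O3 left out. The DESeq2 log2 fold change of Itgb7 was -2.38 without O1, against -3.11 with all libraries. Itgb7 is a chain of lymphocyte integrins, and it was highest in O1, as was the sum of the blood cell markers. Single markers of that list, given above, went both ways in O1. The part of blood cells in this call was not tested. Without OA2 and O1, which leaves 2 libraries in each group, DESeq2 called 0 members. Itga7 then had a DESeq2 log2 fold change of -1.67, against -1.60 with all libraries, and a padj of 0.158, while Itgb7 had -1.96 and a padj of 0.999.

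Of all members, Lama5 had the lowest p when tripotent clones were set against osteogenic ones. It averaged 248 ± 86.0 CPM in OAC against 46.4 ± 30.2 CPM in O without overlap (log2 fold change 2.42 with an SE of 0.73, edgeR FDR 0.73, DESeq2 padj 0.0647), and passed neither test. Lamc1 averaged 539 ± 104 CPM in OAC against 355 ± 35.1 CPM in O without overlap (log2 fold change 0.60 with an SE of 0.21, edgeR FDR 0.763, DESeq2 padj 0.221). Itgb7 averaged 1.95 ± 0.928 CPM in OAC against 7.68 ± 5.76 CPM in O (log2 fold change -1.97 with an SE of 0.76, edgeR FDR 0.774, DESeq2 padj 0.278), and Lama3 averaged 9.69 ± 7.26 CPM in OAC against 2.34 ± 0.651 CPM in O (log2 fold change 2.05 with an SE of 1.00, edgeR FDR 0.853, DESeq2 padj 0.492). The edgeR log2 fold change of Itgb7 was -1.30 without O1, its highest library. By edgeR 0 members passed (0% of all genes) and 3 had an unadjusted p under 0.05 (6.02%). DESeq2 called 0 (0.728%), although it called 1 member when OA2, O2 or O3 was left out, and 3 did not overlap (11.5%). It also called 1 without OA2 and O1 together.

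Between OAC and OA the question was what goes with chondrogenic capacity. Itga7 averaged 16.2 ± 6.25 CPM in OAC against 7.15 ± 2.50 CPM in OA without overlap (log2 fold change 1.18 with an SE of 0.37, edgeR FDR 0.9997, DESeq2 padj 0.9999). Lama3 averaged 9.69 ± 7.26 CPM in OAC against 1.69 ± 2.31 CPM in OA (log2 fold change 2.51 with an SE of 1.02, edgeR FDR 0.9997, DESeq2 padj 0.9999), with OAC1 inside the range of OA. Itga1 averaged 33.5 ± 8.04 CPM in OAC against 14.6 ± 3.44 CPM in OA without overlap (log2 fold change 1.201 with an SE of 0.65, edgeR FDR 0.9997, DESeq2 padj 0.9999), and Itgb1 averaged 1227 ± 174 CPM in OAC against 775 ± 352 CPM in OA (log2 fold change 0.66 with an SE of 0.40, edgeR FDR 0.9997, DESeq2 padj 0.9999), where OA2 was the lowest library. By edgeR 0 members passed (0% of all genes), 2 had an unadjusted p under 0.05 (1.17%), DESeq2 called 0 (0%, but 1 member without OA3), and 3 did not overlap (4.93%). The OC3 and AC3 pools, both with chondrogenic capacity, had 24.5 and 6.83 CPM of Itga7, on either side of the OAC values.

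The multipotent libraries (OAC and OA) were compared with the unipotent ones (O and A), which reuses all 12 libraries. Itga9 was higher by DESeq2, at 30.3 ± 12.96 CPM in the multipotent and 10.6 ± 8.49 CPM in the unipotent libraries (SD, n = 6 each, log2 fold change 1.66 with an SE of 0.43, edgeR FDR 0.998, DESeq2 padj 0.0403). Itga7 averaged 11.7 ± 6.52 CPM in the multipotent and 21.6 ± 4.27 CPM in the unipotent libraries (log2 fold change -1.007 with an SE of 0.26, edgeR FDR 0.998, DESeq2 padj 0.0884). Among the chains of blood cell integrins, Itgb7 averaged 1.43 ± 0.879 CPM in the multipotent and 4.80 ± 4.85 CPM in the unipotent libraries (log2 fold change -1.52 with an SE of 0.53, edgeR FDR 0.998, DESeq2 padj 0.306). Itgb2 averaged 1.15 ± 0.367 CPM in the multipotent and 3.50 ± 2.83 CPM in the unipotent libraries (log2 fold change -1.59 with an SE of 0.61, edgeR FDR 0.998, DESeq2 padj 0.414), and neither gene passed. The edgeR log2 fold change of Itgb2 was -0.93 without O1, its highest library, and -0.77 without OA2 and O1 together. Groups overlapped for all 28 members (0.288% of all genes did not overlap). By edgeR 0 members passed (0%), 5 reached an unadjusted p under 0.05 (4.86%), while by DESeq2 1 passed (0.223%). The padj of Itga9 was 0.109 with OAC1 left out, 0.0979 with OAC2 left out, 0.146 with OA1 left out, 0.107 with OA2 left out, 0.101 with O3 left out, 0.147 with A2 left out and 0.16 with A3 left out, and 0.0734 without OA2 and O1 together.

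A test of any difference among the 4 groups ranked Itga7 (edgeR F = 7.43, FDR 0.609, DESeq2 padj 0.0209), Itgb7 (FDR 0.667, padj 0.0188) and Itga9 (FDR 0.704, padj 0.0369) first. Lama5 (FDR 0.786, padj 0.12) and Lama4 (FDR 0.793, padj 0.119) came next. By edgeR 0 of 28 members passed, with 6 at an unadjusted p under 0.05, against 0% and 5.97% of all genes. DESeq2 called 3, against 2.1% of all genes. The lowest ranks were those of Itga5 (FDR 0.9999) and Itga3 (FDR 0.9999).

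Genes that work with these receptors were listed by role. The list of cytoplasmic adaptors and kinases, such as talin and vinculin, had 21 tested genes, and the basement membrane partners of laminin had 13, other laminin receptors 5 and integrin ligands 9. By edgeR 0 genes of the 4 lists passed in any of the 7 comparisons, and DESeq2 called 0 adaptors and 0 other laminin receptors. Col15a1, a collagen of the basement membrane zone, was the only basement membrane partner that DESeq2 called. It stood at 77.8, 82.8 and 207 CPM (OAC1 to OAC3), 141, 232 and 235 CPM (OA1 to OA3), 2.29, 42.2 and 10.5 CPM (O1 to O3), and 90.2, 54.9 and 70.0 CPM (A1 to A3), and its level in O1 was the lowest. In OA vs O the values were a log2 fold change of 3.47 with an SE of 0.86, edgeR FDR 0.852, DESeq2 padj 0.00763, and the padj was 0.105 with OA2 left out. Its DESeq2 log2 fold change there was 4.98 without O2 and 3.47 with all libraries. It was also called in OAC vs O (padj 0.044) and in multipotent vs unipotent libraries (padj 0.0376). With 1 library left out, the first call was kept only without OA2 or O2 (padj up to 0.283). The second was then kept only without OAC1, OA3, O1 or O2 (padj up to 0.187). Without OA2 and O1 together both calls were kept, with a padj of 0.0227 and 0.0147. Among the ligands, Spp1, the osteopontin that binds Itgav receptors, stood at 643, 2061 and 903 CPM (OAC1 to OAC3), 519, 319 and 1241 CPM (OA1 to OA3), 162, 143 and 227 CPM (O1 to O3), and 955, 1233 and 914 CPM (A1 to A3). It was lower in every O library than in every other library. In O vs A the values were a log2 fold change of -2.54 with an SE of 0.55, edgeR FDR 0.181, DESeq2 padj 0.000585. In OAC vs O the values were a log2 fold change of 2.76 with an SE of 0.56, edgeR FDR 0.73, DESeq2 padj 0.000386. The padj was at most 0.018 in O vs A and 0.0366 in OAC vs O whichever library was left out. Postn, a matrix ligand of Itgav, stood at 360.2, 427 and 1370.2 CPM (OAC1 to OAC3), 919, 30.8 and 1409 CPM (OA1 to OA3), 148, 5436 and 3428 CPM (O1 to O3), and 213, 75.0 and 328 CPM (A1 to A3). In O vs A the values were a log2 fold change of 3.87 with an SE of 1.42, edgeR FDR 0.411, DESeq2 padj 0.0238, and the padj was 0.207 with O2 left out, 0.0707 with O3 left out, 0.101 with A1 left out and 0.173 with A2 left out. Its DESeq2 log2 fold change was 3.15 without O2, against 3.90 with all libraries. The bone sialoprotein gene Ibsp, a ligand of Itgav with Itgb3, was called by DESeq2 in O vs A (padj 0.000126), OA vs A (padj 4.19e-05) and OAC vs A (padj 0.0107), and stood at 2.74, 125 and 208 CPM (OAC1 to OAC3), 316, 1.02 and 1520.0 CPM (OA1 to OA3), 1.85, 817 and 209 CPM (O1 to O3), and 0, 0.648 and 0.229 CPM (A1 to A3). It was under 1 CPM in all A libraries, and also low in OA2, O1 and OAC1. Like Lamb3, it therefore passed the filter only through libraries of other groups than A. The calls in O vs A and OA vs A held whichever library was left out, while the padj in OAC vs A was 0.143 with OAC2 left out, 0.154 with OAC3 left out and 0.0809 with A3 left out.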

How the data were processed

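Poly(A)-selected RNA was sequenced strand-specifically, per the labels' protocols. The authors deposited one table of raw counts, whole numbers for each gene, beside an exonic length, and CASAVA 1.8.0, bedtools 2.11 and build mm9 are named in the submitters' processing notes. Neither the aligner nor the strand setting is given in these sources, so counts of overlapping genes are uncertain. Columns carry the library names.

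Counts were fitted for 13896 genes with edgeR 4.0.16 (quasi-likelihood F test, TMM, robust, 6 group means, R 4.3.3), with Benjamini-Hochberg adjustment across the tested genes (FDR). Each SE was derived from F and the fold change. DESeq2 1.42.0 (padj, not given for 21 genes) and limma 3.58.1 were alternatives. Both count tools were tested on simulated counts of the O vs A comparison, drawn with the spread that edgeR had estimated. There DESeq2 called more unchanged genes than its threshold allows, in a setting that follows the model of edgeR. A positive log2 fold change is higher in the group named first. Values per library are given for members averaging at least 20 CPM and for the 4 members with the lowest edgeR p in each of 7 comparisons. GC content is that of the longest GENCODE M21 transcript. The values of 1 member are not reported here. Members, lists and tests were chosen with earlier results of these data known.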

Additional observations from a re-analysis of the deposited data

How the results depend on the processing

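By edgeR 0 of the 28 members passed in any of the 7 comparisons or in the test of the 4 groups, and the count was also 0 in each of 96 repeats of these tests without 1 library, with RLE or upper-quartile factors, with no filter or a filter of 5 CPM, without OA2 and O1, with single clones only, with the groups compared only and with a GC offset. The 28 named log2 fold changes kept their sign in all 662 values from 24 other settings of edgeR, DESeq2 and limma. They had been chosen by low p, and many settings left out a library outside the comparison, so a kept sign is weak evidence. For Itgb3 in OA vs O the sign was kept at 0.0048 without OA2, against 1.52 with all libraries. DESeq2 called 4 members in O vs A, 2 in OA vs O, 3 in OA vs A, 1 in OAC vs A, 1 in multipotent vs unipotent and 3 in the test of the 4 groups, and limma voom with quality weights called 1, Lamb3 in O vs A (FDR 0.036). Lamb3 was under the filter level of 1 CPM in every A library. Without 1 library, the DESeq2 count ranged over 1 to 4 in O vs A, 0 to 2 in OA vs O, 0 to 4 in OA vs A, 0 to 1 in OAC vs OA, 0 to 1 in OAC vs O, 0 to 1 in OAC vs A and 0 to 2 in multipotent vs unipotent. Without OA2 and O1, chosen as a DESeq2 setting after seeing the data, it was 4 in O vs A, 0 in OA vs O, 5 in OA vs A, 0 in OAC vs OA, 1 in OAC vs O, 1 in OAC vs A and 0 in multipotent vs unipotent. The cause of these changes was not tested.

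With the replicate block, edgeR again called 0 members in each of these tests, also together with the GC offset. The labels do not say whether a number marks the same mouse in each group. The correlation of deviations of same-numbered libraries was -0.31 to 0.39 for number 1, -0.58 to 0.47 for number 2 and 0.29 to 0.76 for number 3, the pools, and the numbers were not used as pairs because not every pair was over 0.1. Library totals in place of TMM moved 82 of 84 group means by less than 1 SD. Each value of the 4 untested members rests on too few reads for any statement on groups.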

Other observations

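Several integrin genes lie outside the rule because of their symbols, and their levels are given here as values. Itga2b, the platelet chain, stood at 6.09, 5.78 and 5.61 CPM (OAC1 to OAC3), 6.56, 3.97 and 7.53 CPM (OA1 to OA3), 19.8, 12.5 and 13.2 CPM (O1 to O3), and 10.2, 8.10 and 8.89 CPM (A1 to A3), with 9.93 CPM in OC3 and 7.74 CPM in AC3. Every O library lay above every other library. The highest value of Itga2b was in O1, where Itgb2 and Itgb7 were also highest, but in O2 these had only 0.609 and 1.91 CPM. Itgad, a chain of macrophage integrins, stood at 2.38, 8.61 and 0.790 CPM (OAC1 to OAC3), 1.65, 1.34 and 1.30 CPM (OA1 to OA3), 0.0637, 0 and 0 CPM (O1 to O3), and 12.8, 0.243 and 1.22 CPM (A1 to A3), with 0 CPM in OC3 and 3.69 CPM in AC3. It had 1, 0, 0 and 0 reads in O1, O2, O3 and OC3, and 311 reads in A1. Itgal, its lymphocyte relative, stood at 2.65, 2.52 and 4.74 CPM (OAC1 to OAC3), 0.401, 1.39 and 1.03 CPM (OA1 to OA3), 0.700, 1.015 and 1.13 CPM (O1 to O3), and 2.22, 4.21 and 1.87 CPM (A1 to A3), with 0.493 CPM in OC3 and 0.754 CPM in AC3. Itgbl1, a secreted protein related to the beta chains, stood at 0.662, 5.60 and 4.27 CPM (OAC1 to OAC3), 2.51, 3.27 and 8.12 CPM (OA1 to OA3), 1.85, 3.90 and 5.55 CPM (O1 to O3), and 0.164, 1.38 and 0.382 CPM (A1 to A3), with 4.55 CPM in OC3 and 9.05 CPM in AC3. OAC1 lay within the range of A, and the highest value was that of AC3. Itgb1bp1, an adaptor that binds the tail of Itgb1, ranged from 24.2 to 56.7 CPM.

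Itgb8, a partner of Itgav, was highest in 4 of the 6 pools, at 11.9, 12.3, 6.64 and 8.30 CPM in OAC3, OA3, O3 and OC3. The pools A3 and AC3 had 2.98 and 2.10 CPM, and the 8 single clones had at most 4.01 CPM. This split was noticed in the values and was not tested. The Itgb8 transcript has 40.4% GC, the lowest of the members. The rho of deviation with GC content was -0.54, -0.43, -0.44 and -0.54 in OAC3, OA3, O3 and OC3. It was -0.20 in A3, -0.54 in AC3 and -0.47 in the single clone O2. The part of this GC trend in the split was not tested.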
